A study of Mus musculus with 8 samples.

Results

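The genes described here are 10 enzymes and partner proteins that make or break down eicosanoids, Alox5, Alox5ap, Ltc4s, Lta4h, Ptgs1, Ptgs2, Ptges, Ptgis, Ptgds and Hpgd. They were taken by symbol and all 10 were found among the 33027 genes of the expression matrix. Their transcripts were followed across mouse lung cell types and between mice exposed to cigarette smoke (CS) and mice kept in room air (RA). Right-lung cells of 8 C57BL/6 mice carrying the Sftpc-CreERT2 and mTmG alleles were profiled by droplet single-cell RNA sequencing, 4 CS mice (C2, C5, D2 and D5) after 10 months of exposure and 4 RA mice (F1, F3, M1 and M3). All mice had received tamoxifen at 8 to 10 weeks of age, in the CS and the RA group alike. The Cre is driven by Sftpc, the gene for surfactant protein C of AT2 cells, so the reporter is switched on in those cells and no eicosanoid gene was altered by design. Leukocytes were separated by CD45 and put back at 10% CD45-positive to 90% CD45-negative cells, so cell numbers describe that mixture and not the lung.

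Eicosanoids are short-lived lipid signals made from arachidonic acid. In the leukotriene branch, 5-lipoxygenase (Alox5) works together with its activating protein (Alox5ap) to give leukotriene A4, which leukotriene A4 hydrolase (Lta4h) turns into leukotriene B4, an attractant for neutrophils, or leukotriene C4 synthase (Ltc4s) joins to glutathione as the first of the cysteinyl leukotrienes that contract airway muscle. In the prostanoid branch, the cyclooxygenases Ptgs1 and Ptgs2 give prostaglandin H2, which Ptges, Ptgis and Ptgds convert to prostaglandin E2, prostacyclin and prostaglandin D2. Prostacyclin relaxes vessels and hinders platelet clumping, and Hpgd starts the breakdown of prostaglandins, a task for which the lung circulation is known.

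Promoters of Ptgs1, Ptgs2 and Hpgd are shown because every CS mouse had a lower value than every RA mouse in gCap or arterial endothelial cells, although only Ptgs1 in gCap cells passed the test given later. Ptgis, which had the smallest unadjusted p of the members in arterial cells, has no window in the table used here. The windows run from 250 bases before to 50 bases after the RefSeq start and belong to build GRCm38.p6. Capitals mark matches on either strand to the TATA box (TATAAA), a cyclic AMP response element core (CGTCA), a xenobiotic response element core (GCGTG) and an antioxidant response element core (TGACNNNGC).
Ptgs1, chr2:36230176-36230475, plus strand: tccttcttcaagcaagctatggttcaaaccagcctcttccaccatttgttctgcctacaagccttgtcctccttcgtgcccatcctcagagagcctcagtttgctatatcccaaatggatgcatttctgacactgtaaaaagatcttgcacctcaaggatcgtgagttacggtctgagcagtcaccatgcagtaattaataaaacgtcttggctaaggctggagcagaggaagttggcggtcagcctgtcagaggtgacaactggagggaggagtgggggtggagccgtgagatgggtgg
Ptgs2, chr1:150099781-150100080, plus strand: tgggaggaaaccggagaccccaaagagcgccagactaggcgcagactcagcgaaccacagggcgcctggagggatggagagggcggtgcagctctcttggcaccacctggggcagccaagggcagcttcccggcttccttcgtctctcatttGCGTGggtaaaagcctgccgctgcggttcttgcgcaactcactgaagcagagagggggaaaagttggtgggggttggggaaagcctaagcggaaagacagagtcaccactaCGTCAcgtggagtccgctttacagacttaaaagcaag
Hpgd, chr8:56294302-56294601, plus strand: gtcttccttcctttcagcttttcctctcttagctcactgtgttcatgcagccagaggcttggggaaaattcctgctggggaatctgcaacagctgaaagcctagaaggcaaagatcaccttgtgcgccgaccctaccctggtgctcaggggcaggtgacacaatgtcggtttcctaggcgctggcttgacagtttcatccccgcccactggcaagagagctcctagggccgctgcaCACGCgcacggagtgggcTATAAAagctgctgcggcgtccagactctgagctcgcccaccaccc

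Ptgs2 held the xenobiotic element core at bases 153 to 157 and the cyclic AMP element core at bases 264 to 268 of its window. Hpgd held the xenobiotic element core on the reverse strand at bases 237 to 241 and the TATA box at bases 255 to 260. None of the 4 motifs was found in the Ptgs1 window. Of all 32851 promoter windows of this length, 13.6% held the TATA box, 20.8% the cyclic AMP, 32.4% the xenobiotic and 12.4% the antioxidant element core, so these matches are common and describe the letters only. Windows were given for 8 of the 10 members. Among the other 5, Ptges held the xenobiotic element core at bases 86 to 90, and Alox5, Ltc4s, Lta4h and Ptgds held none of the motifs.

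The matrix held 41106 cells, of which 40074 in 32 annotated cell types were kept (20330 from CS and 19744 from RA mice). A mouse contributed 2553 to 6371 cells with a median of 4254 to 6473 unique molecular identifiers (UMIs, 1 per captured transcript) per cell. Every level below is the mean over a mouse's cells of a type after scaling each cell to 10,000 transcripts, and mice with at least 20 cells entered. RA mouse F1 stood apart: it had the lowest UMI median, only 6 cells labelled mast cells and 2 non-classical monocytes, and it is left out of 3 leukocyte comparisons for lack of cells. CS mouse C2 is left out of mesothelial cells and, with RA mouse M3, of peribronchial fibroblasts. By label, C2, C5, M1 and M3 were male and D2, D5, F1 and F3 female. Xist and Ddx3y went against the labelled sex in all 4 CS libraries and matched it in all 4 RA libraries. Each group held both sexes by label and by these transcripts. Among the cells, 197 barcode sequences occurred in more than 1 library (394 cells).

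Markers of the main cell types were highest where their labels say, among them Marco in alveolar macrophages, S100a8 in neutrophil granulocytes, Msln in mesothelial cells, Gpihbp1 in gCap cells (the general capillary endothelium) and Ednrb in aerocytes (the alveolar capillary endothelium). The label of the mast cells was not borne out. These cells held Cpa3 (9.22 per 10,000) and Ms4a2 (4.63), but Kit stood at 0.3899, below the 5.02 of gCap cells, Cma1 at 0.118 and Mcpt4 at 0. They were also the highest type for all 4 listed basophil markers, with Mcpt8 at 11.6, Cd200r3 at 9.37 and Fcer1a at 5.45 beside Ms4a2. They are therefore called cells labelled mast cells. The 101 cells labelled M were highest for C1qa, C1qb and C1qc.

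Alox5, the 5-lipoxygenase (chr6:116410077-116461178, minus strand, GRCm38), had its 4 highest levels in myeloid cells. It was highest in cells labelled mast cells at 2.25 ± 0.251 transcripts per 10,000 (SD, n = 7 mice), next in alveolar macrophages at 1.15 ± 0.228 (n = 8), then in neutrophil granulocytes at 0.8001 ± 0.194 (n = 8) and non-classical monocytes at 0.401 ± 0.172 (n = 7). The cells labelled mast cells were above alveolar macrophages in 7 of 7 mice, while macrophages were above neutrophils in 6 of 8 mice. Classical monocytes followed at 0.0443, so the step from non-classical to classical monocytes was 9.05-fold. A transcript was found in 43.5% of cells labelled mast cells (median of 3446 UMIs) against 0.205% of AT1 cells (median of 10135 UMIs), the type set as one that should lack it.

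Alox5ap, which hands arachidonic acid to the lipoxygenase (chr5:149264767-149288153, plus strand), was found in the same 4 types and in classical monocytes. It stood at 18.7 ± 0.729 per 10,000 in cells labelled mast cells (n = 7), 16.1 ± 2.76 in neutrophil granulocytes, 13.3 ± 0.967 in classical monocytes, 7.34 in non-classical monocytes and 6.82 ± 0.687 in alveolar macrophages. The next type, arterial endothelial cells, was 22.97-fold below the macrophages at 0.297. The cells labelled mast cells were above neutrophils in 7 of 7 mice, and neutrophils above classical monocytes in 8 of 8. Among types with too few cells for a test, cDC2 (8.204, 127 cells) and cDC1 (7.44, 66 cells) stood near the non-classical monocytes. Classical monocytes held the activating protein in 94.04% of cells while their Alox5 level was 0.0443.

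Ltc4s, which commits leukotriene A4 to the cysteinyl leukotrienes (chr11:50236461-50238616, minus strand), was concentrated in alveolar macrophages. The CS mice had 6.31, 6.11, 5.66 and 5.305 per 10,000 and the RA mice 5.02, 4.47, 6.404 and 5.27 in these cells. All 8 mice were far above lymphatic endothelial cells, the next type at 0.458 ± 0.245, a 12.2-fold step. A transcript was found in 86.1% of alveolar macrophages and in 0.308% of AT1 cells. The cells labelled mast cells were the lowest of the 22 types for Ltc4s at 0.00276, although they led for Alox5 and Alox5ap. Among the rarer types, 33.7% of the 101 cells labelled M held a transcript, at a level of 0.842.

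Lta4h, the hydrolase that makes leukotriene B4 (chr10:93453411-93484875, plus strand), was found in every cell type. It was highest in NK and cytotoxic T cells at 1.19 ± 0.305 (n = 7), above the next type in 7 of 7 mice. From non-classical monocytes (0.617) through aerocytes, T cells, alveolar macrophages and gCap cells to arterial cells (0.489) each type was above the next in only 3 to 5 mice, so these neighbours did not differ beyond their spread. Club cells were lowest at 0.145.

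**Figure D1:**
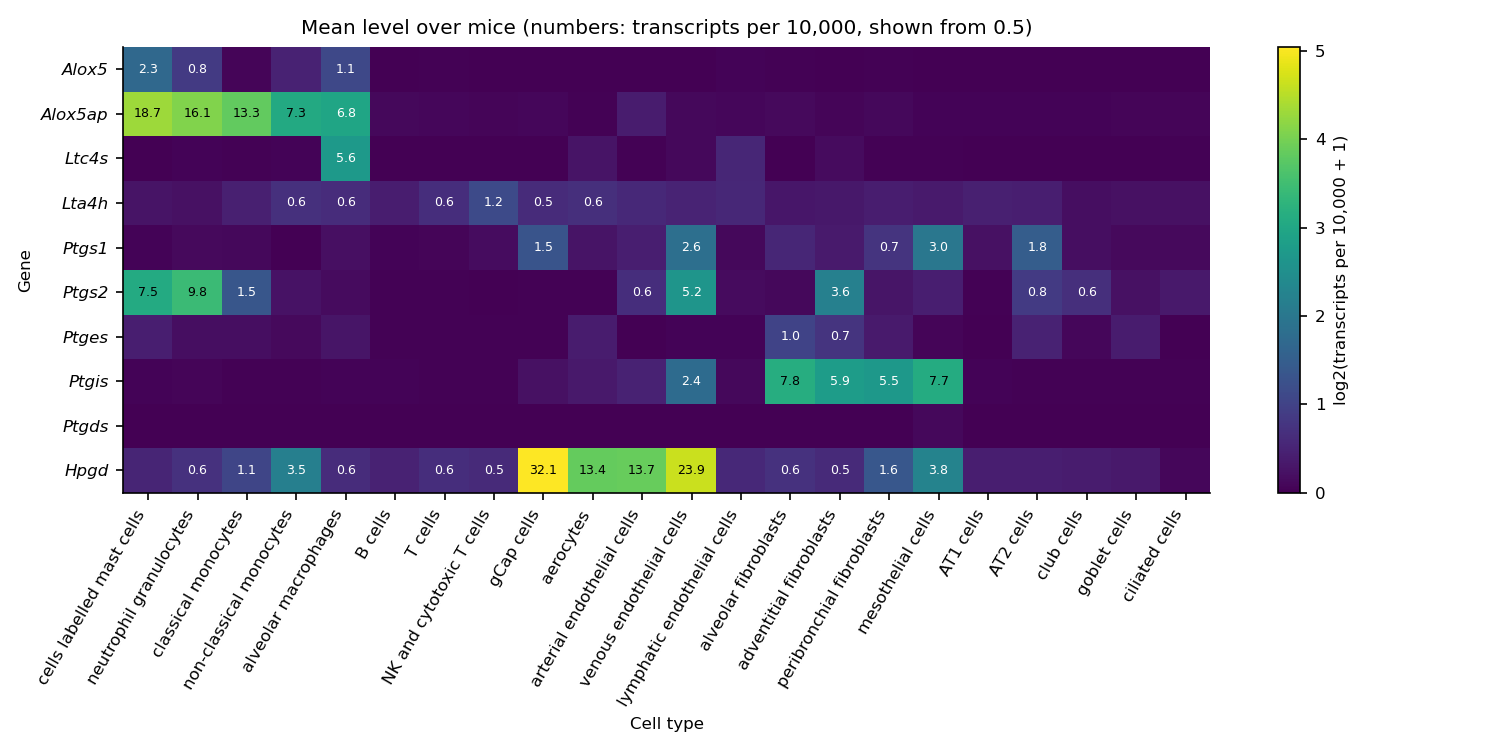
Heat map of the 10 members (rows) in the 22 cell types with enough mice (columns); colour is log2(mean transcripts per 10,000 + 1) over mice and printed numbers are the mean transcripts per 10,000 from 0.5 upward. Alox5ap fills the 5 myeloid columns at the left, Hpgd the 4 blood endothelial columns, Ptgis the fibroblast and mesothelial columns, and Ltc4s the single column of alveolar macrophages.

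The cyclooxygenases had different highest types, and both were found in venous endothelial, AT2 and mesothelial cells. Ptgs1, the form most cells make at a steady level (chr2:36230426-36252272, plus strand), was highest in mesothelial cells at 2.98 ± 0.343 (n = 7) and venous endothelial cells at 2.595 ± 0.514 (n = 8), which did not separate (mesothelial higher in 4 of 7 mice). AT2 cells at 1.82 ± 0.414 and gCap cells at 1.496 ± 0.591 came next, and peribronchial fibroblasts followed at 0.686. Ptgs1 was found in 91.3% of mesothelial cells (median of 15017 UMIs) and 1.63% of B cells (median of 4055 UMIs), the type set as lacking it.

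Ptgs2, the form induced by injury and inflammatory signals (chr1:150100031-150108227, plus strand), was highest in neutrophil granulocytes. The CS mice had 7.43, 6.71, 16.4 and 13.1 per 10,000 in these cells and the RA mice 2.72, 7.56, 12.2 and 12.7. The groups overlapped and F1 was lowest of the 8. Cells labelled mast cells followed at 7.54 ± 1.81 (n = 7), venous endothelial cells at 5.16 ± 2.15, adventitial fibroblasts at 3.62, classical monocytes at 1.54 ± 1.52 and AT2 cells at 0.805, with mesothelial cells at 0.334. The spread between mice was wide, with venous cells ranging from 1.93 to 7.85. Ptgs2 was found in 53.1% of neutrophils (median of 2295 UMIs) and in 0.943% of B cells.

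Ptgis and Ptges were highest in alveolar fibroblasts. Ptgis, prostacyclin synthase (chr2:167191805-167240604, minus strand), stood at 7.798 ± 1.34 in alveolar fibroblasts, 7.65 ± 1.18 in mesothelial cells, 5.91 in adventitial and 5.46 in peribronchial fibroblasts. Alveolar fibroblasts were above mesothelial cells in 5 of 7 mice and adventitial above peribronchial fibroblasts in 3 of 6, so within each pair the order was not stable. Among endothelial cells it was found mainly in veins at 2.38, 6.098-fold above the arteries (0.391), in 8 of 8 mice. Smooth muscle cells, with 149 cells, held 2.59. Ptges, the inducible prostaglandin E synthase (chr2:30889471-30929863, minus strand), was highest in alveolar fibroblasts at 1.02 and adventitial fibroblasts at 0.697, with AT2 cells at 0.393 and aerocytes at 0.3103. A transcript was found in 92.6% (Ptgis) and 39.6% (Ptges) of alveolar fibroblasts and in 1.29% and 0.857% of B cells.

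Ptgds, the lipocalin-type prostaglandin D synthase (chr2:25466709-25470046, minus strand), was at or near 0 in most types. Its highest level was 0.0721 ± 0.0316 per 10,000 in mesothelial cells (n = 7), a 7.17-fold step above AT1 cells. It was found in 12.2% of the mesothelial cells (median of 15017 UMIs) and in 0 of 2334 B cells (median of 4055 UMIs). Taken as independent draws, which cells of the same mouse are not, this allows up to 0.129% of B cells with a value above 0 at their depth. It does not limit the share that expresses the gene.

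Hpgd, which oxidizes prostaglandins to inactive products (chr8:56294585-56321043, plus strand), was highest in the blood endothelium. Its level was 32.1 ± 6.76 in gCap cells, 23.9 ± 8.29 in venous, 13.7 ± 4.79 in arterial endothelial cells and 13.4 ± 3.51 in aerocytes. gCap cells were above venous cells, and venous above arterial cells, in 8 of 8 mice, while arterial cells were above aerocytes in 4 of 8. Lymphatic endothelial cells held 0.494. Mesothelial cells (3.801) and non-classical monocytes (3.51) led the other types. Hpgd was found in 97.5% of gCap cells and in 6.64% of B cells, the largest share of the 9 members compared with a type set as lacking them.

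How often transcripts of consecutive steps were found in the same cell differed between steps and cell types. Alox5 and Alox5ap were found together in 46.5% ± 14.8 of alveolar macrophages (SD over 8 mice) and 41.8% ± 4.49 of cells labelled mast cells (7 mice). With Ltc4s added, the share was 42.98% ± 14.6 in alveolar macrophages but 2 of 1207 cells labelled mast cells and 3 of 1411 neutrophils. With Lta4h in place of Ltc4s, it was 14.4% ± 9.06 in alveolar macrophages, 3.79% ± 1.44 in cells labelled mast cells and 0.797% in neutrophils. Either cyclooxygenase was found with Ptgis in 91.2% ± 2.74 of mesothelial cells, 52.3% of venous endothelial cells and 48.1% of adventitial fibroblasts. The same with Ptges reached 30.9% in goblet cells and 28.4% in AT2 cells, and with Ptgds 10.1% in mesothelial cells and under 1% in the other types tested. A cyclooxygenase was found with Hpgd in 80.9% ± 3.84 of venous endothelial cells, 70.001% of mesothelial cells and 38.9% of gCap cells. Venous cells also led for cells with both Ptgs1 and Ptgs2, at 30.1% ± 6.93, followed by AT2 cells at 20.4% ± 6.01 and mesothelial cells at 20.3% ± 2.84. These shares rise with depth, which ran from a median of 2295 UMIs in neutrophils to 35093 in goblet cells.

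**Figure D2:**
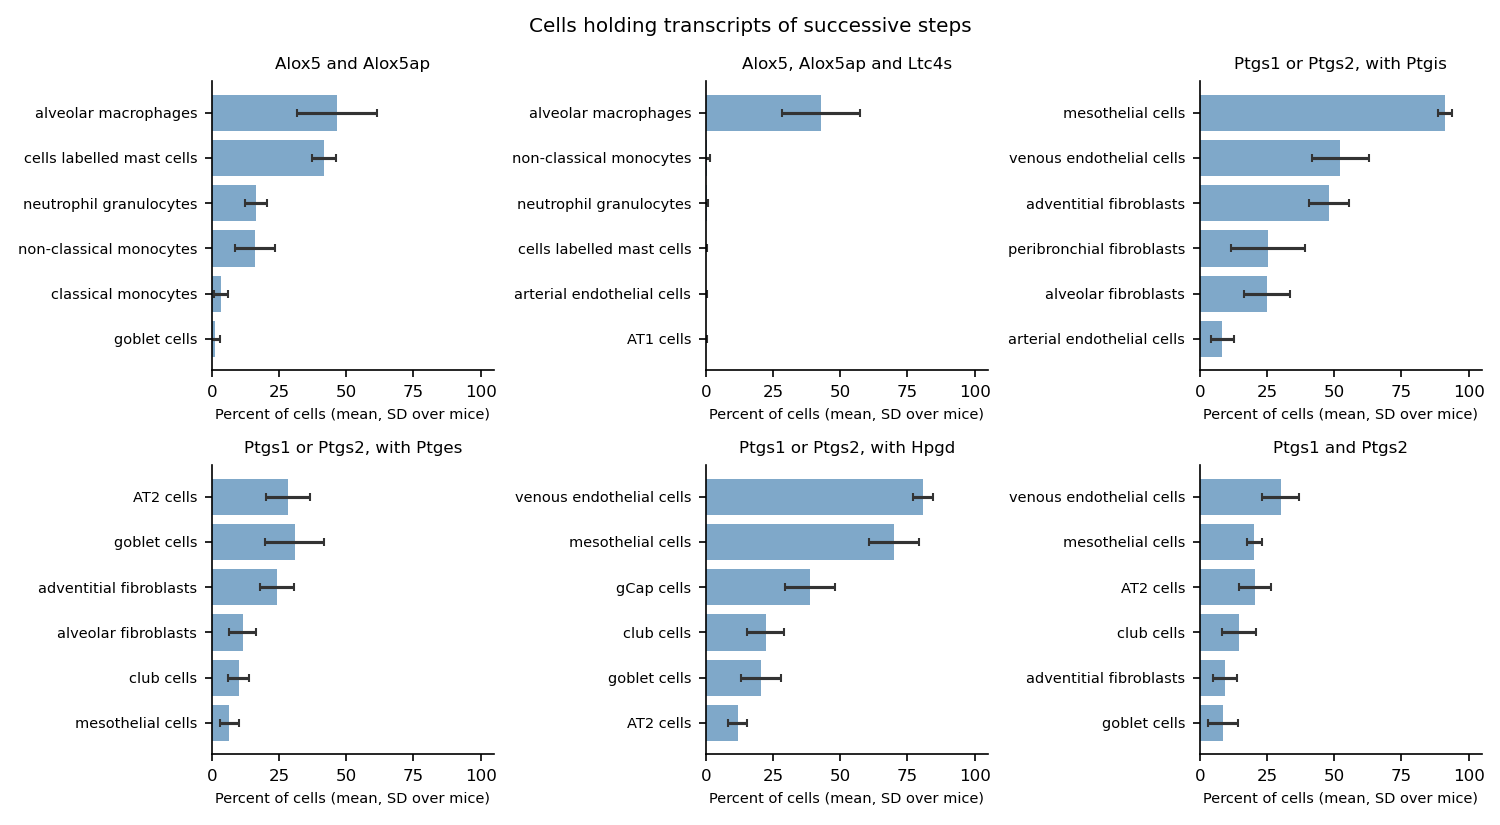
Bars give the percent of cells holding transcripts of all steps named above each panel, as the mean over mice with SD, for the 6 leading cell types of those tested. In the panel of Alox5, Alox5ap and Ltc4s, alveolar macrophages reach 42.98% and every other type is below 1%.

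Counted over all kept cells of a mouse, gCap cells, with 9988 of the 40074 cells, carried 70.2% ± 5.12 of Hpgd transcripts (SD over 8 mice), 46.7% ± 9.16 of Ptgs1 and 30.9% of Lta4h. Alveolar macrophages, with 418 cells, carried 57.8% ± 17.8 of Ltc4s, and aerocytes 17.9% of it. Ptgs2 was shared by neutrophils (31.3%), cells labelled mast cells (21.4%), venous cells (19.2%) and adventitial fibroblasts (13.3%). Alveolar fibroblasts carried 34.1% of Ptgis and 26.9% of Ptges. Cells labelled mast cells carried 52.7% of Alox5, from 3.03% in F1, which had 6 such cells, to 69.5%. These shares depend on the cell mixture that was loaded. They are not shares of unscaled transcripts, as every cell weighs alike whatever its depth. The median depth was 2295 UMIs in neutrophils and 9418 in adventitial fibroblasts, and shares of unscaled counts, which could order the types differently, were not computed.

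**Figure D3:**
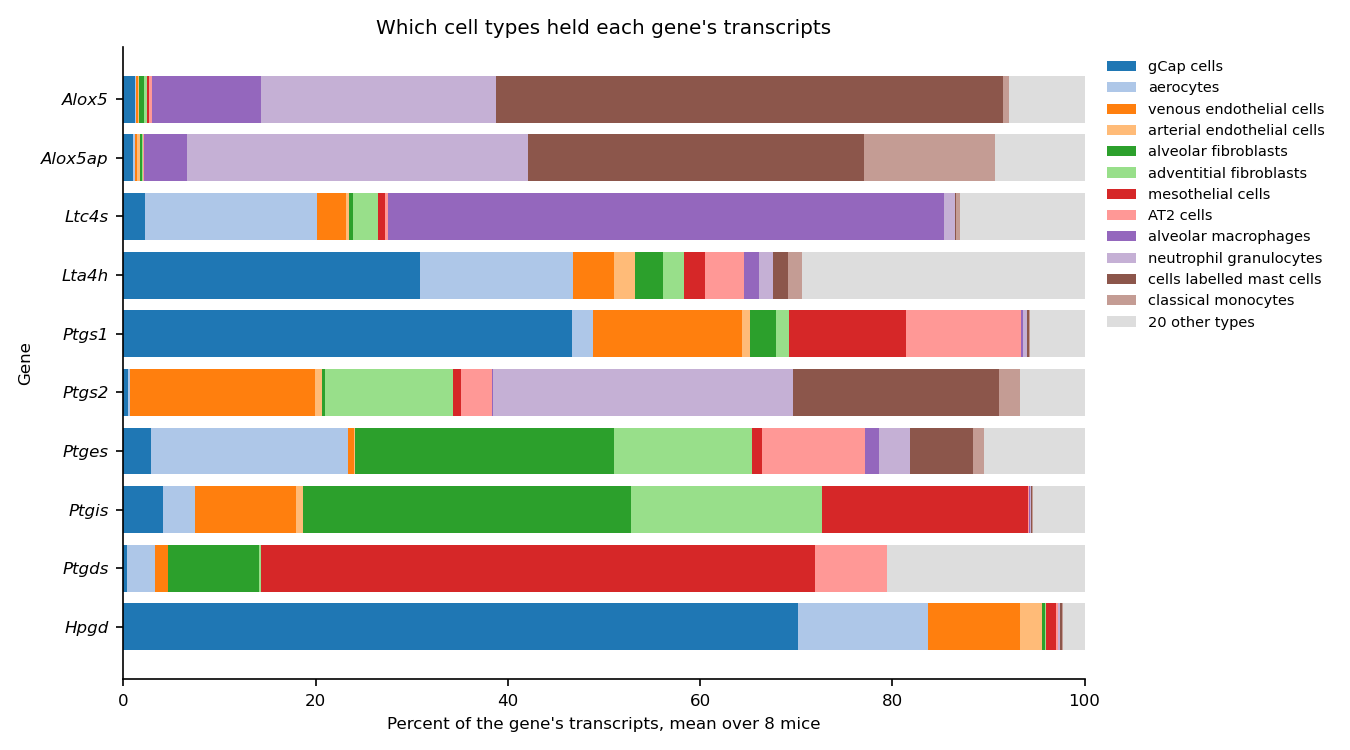
Stacked bars give the percent of each gene's transcripts found in each cell type, as the mean over 8 mice, with the 20 types not named pooled in grey. The widest segments are gCap cells for Hpgd (70.2%) and alveolar macrophages for Ltc4s (57.8%), whereas Lta4h is spread over many types.

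Across the 22 types, Alox5 and Alox5ap had the highest correlation of any pair of members (Pearson r = 0.81 of log2 levels), and that of Ptgs1 and Ptgs2 was 0.09. The genes whose profile over these types was most like a member's, among 6848 genes, were Ccl3, Osm and Csf2rb for Alox5 (r from 0.93 to 0.94), Taldo1, Fcgr3 and Gsr for Alox5ap (r from 0.95 to 0.96), Lrp12, Htr2c and Ang4 for Ltc4s (r = 0.98 each), Jade2, Sppl3 and Usp12 for Lta4h (r from 0.81 to 0.86), Chrm2, Sema3c and Mras for Ptgs1 (r from 0.76 to 0.80), Il15, Fosl1 and Isg15 for Ptgs2 (r from 0.77 to 0.81), Slc1a3, Scarf2 and Fgf10 for Ptges (r from 0.83 to 0.85), Bgn, Ogn and Serping1 for Ptgis (r from 0.93 to 0.97), Tmem151a, Fras1 and Pcnx2 for Ptgds (r from 0.98 to 0.99) and Klhl5, Tspan7 and Parvb for Hpgd (r = 0.94 each). The points are cell types of the same 8 libraries and 1 high type can set such a value, so they are given as a description.

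Smoke was compared with room air in each cell type with limma over mice on log2(level + 1), adjusted by the Benjamini-Hochberg method over all genes tested in the type. A member entered where at least 10% of cells of either group held it, which left 94 pairs of a member and a cell type. Only 1 of the 94 pairs passed an adjusted p of 0.05, Ptgs1 in gCap cells, against 1.23% of all gene and type pairs. The CS mean was higher in 43 pairs and lower in 51, with a median log2 difference of -0.02 (all pairs tested, 0.01). The groups did not overlap in 14 pairs, 12 of them lower in CS, against 10.7% of all pairs without overlap and 4.67% lower in CS without overlap. Among the 14 were Ptgs2 and Ptgis in arterial endothelial cells and Alox5ap in ciliated cells. These 3 pairs met the filter in only 1 group, the one where they were higher. The counts over pairs therefore depend on the filter and are given as a description. An unadjusted p below 0.05 was reached by 19 of the 94 pairs and by 15.2% of all pairs. In a design of 4 against 4 mice the exact two-sided permutation test cannot go below p = 0.0286.

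**Figure D4:**
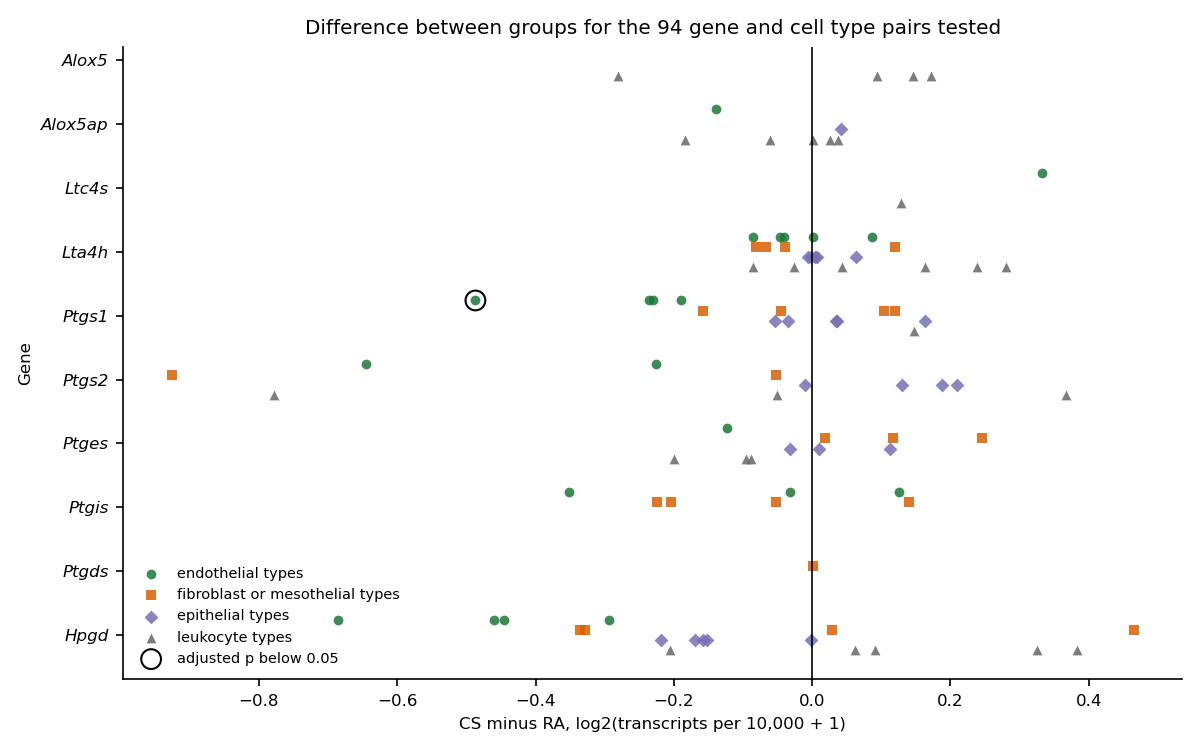
Each point is the CS minus RA difference in log2(transcripts per 10,000 + 1) for 1 member in 1 cell type, by gene (rows) and kind of cell (colour and shape). The single ringed point, the only one that passed the test, is Ptgs1 in gCap cells at -0.49. The endothelial points of Ptgs1, Ptgs2 and Hpgd all lie left of 0. In arterial cells Ptgs1 (8.37% of cells in CS, 16.2% in RA) and Ptgs2 (7.59%, 13.9%) met the filter only in RA mice. Such entry favours points left of 0, so the shared side is given as a description.

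Ptgs1 fell in gCap cells. The CS mice had 1.16, 0.922, 0.968 and 1.22 per 10,000 and the RA mice 2.72, 1.47, 1.82 and 1.696. Every CS mouse was below every RA mouse, and F1 was the highest. The means were 1.07 ± 0.143 in CS and 1.93 ± 0.5498 in RA (SD, n = 4), a log2 difference of -0.49 with a standard error of 0.115 (limma adjusted p = 0.0341; exact permutation p = 0.0286). The share of gCap cells with a Ptgs1 transcript was 30.6% in CS and 46.6% in RA, and 17.8% and 30.2% after thinning each cell to 2000 UMIs. In gCap cells 10.3% of 6556 genes passed the same threshold and 3.97% did so with lower values in CS. Without F1 the difference was -0.37 (limma adjusted p = 0.0201). With the sequencing lane (read from the labels' run names), which held 1 mouse of each group, as a block, limma gave an adjusted p of 0.0646 and the call was lost, and leaving out any of the CS mice or RA mouse F3 also ended it (limma adjusted p from 0.0567 to 0.0894).

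Hpgd in the same cells had values of 28.4, 29.3, 27.3 and 22.7 with smoke and 43.7, 31.8, 34.1 and 39.03 with room air. The groups did not overlap, and the CS mean was 26.9 ± 2.96 against 37.2 ± 5.32 (log2 difference of -0.45, SE 0.131, limma adjusted p = 0.0545). This missed the threshold, which it passed under 4 of 18 alternatives (limma adjusted p from 0.0301 to 0.177 over the 18), and a transcript was found in 97.2% of gCap cells in CS and 97.7% in RA. In gCap cells 24.5% of the genes tested had groups without overlap. Of Fos, Jun, Egr1 and Atf3, looked up after the members' values were seen, the groups did not overlap for Jun and Atf3 in gCap cells, and those of Fos and Egr1 overlapped. Jun stood at 13.2 to 18.5 against 23.99 to 25.98 and Atf3 at 3.59 to 5.53 against 6.79 to 18.6, with CS first. The summed level of the gCap markers Gpihbp1, Aplnr and Plvap was 18.97 to 22.7 in CS and 25.5 to 30.6 in RA. The part of either in the differences of Ptgs1 and Hpgd was not tested. Over all 18 types tested for Hpgd, the CS mean was lower in 12 and higher in 6, with log2 differences from -0.69 in arterial endothelial cells to 0.47 in mesothelial cells (limma adjusted p = 0.445), the highest of the 94 pairs.

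All 6 members tested in arterial endothelial cells had lower means in CS mice, and 0 passed the adjusted threshold (limma), against 0.669% of 7920 genes there, while 4 of the 6 had an unadjusted p below 0.05, against 14.8% of the genes there. Ptgs1, Ptgs2 and Ptgis met the 10% filter only in RA mice, the group where they were higher. Their transcripts were found in 8.37%, 7.59% and 8.75% of arterial cells in CS and in 16.2%, 13.9% and 14.4% in RA mice. The counts over these 6 pairs, here and below, therefore depend on the filter and are given as a description. Hpgd stood at 11.1, 9.81, 10.3 and 9.49 with smoke and at 23.3, 15.7, 17.2 and 12.97 with room air. The groups did not overlap, and the log2 difference was -0.69 (SE 0.163, limma adjusted p = 0.0631). It passed under 3 of 17 alternatives (limma adjusted p from 0.0324 to 0.339 over the 17), with the lowest value without RA mouse M3 (-0.81). Without F1 the difference was -0.54 (limma adjusted p = 0.0986). Ptgs2 stood at 0.008396, 0.256, 0.328 and 0.261 with smoke and at 0.417, 0.615, 1.104 and 1.63 with room air. Again no value crossed, with a log2 difference of -0.64 (SE 0.151, limma adjusted p = 0.0631). It passed under 2 of 16 alternatives, without F1 (limma adjusted p = 0.0202) and with the lane block (0.0345). The highest limma adjusted p over the 16 was 0.435. Ptgis stood at 0.151 to 0.323 in CS and 0.441 to 0.656 in RA mice (log2 difference of -0.35, SE 0.0812, limma adjusted p = 0.0597). It passed under 1 of 16 alternatives, summed counts per mouse (limma adjusted p from 0.038 to 0.272 over the 16).

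Groups without overlap made up 3 of these 6 pairs and 8.86% of all genes tested in arterial cells. A mouse gave 40 to 173 arterial cells. The gCap markers summed to 10.7 to 12.4 in the arterial cells of CS mice and 13.7 to 18.3 in those of RA mice, while Jun stood at 14.3 to 18.08 against 18.1 to 23.9 and Atf3 at 4.08 to 4.99 against 5.39 to 12.7. The groups of Fos and Egr1 overlapped. Their part in the arterial values was not tested.

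Ptgs2 in adventitial fibroblasts had values of 1.48, 1.803, 2.35 and 2.67 with smoke and 8.65, 2.796, 5.497 and 3.68 with room air. The groups did not overlap, as in 14.1% of all genes tested there, although RA mouse F3 lay just above the highest CS mouse. The means were 2.08 ± 0.535 and 5.16 ± 2.59 (log2 difference of -0.93, SE 0.238, limma adjusted p = 0.0555), the largest log2 difference among the 94 pairs. Without F1 it was -0.68 (limma adjusted p = 0.104). It passed under 4 of 18 alternatives (limma adjusted p from 0.034 to 0.244 over the 18), among them without F3 (-1.13, limma adjusted p = 0.0447). Jun at 11.98 to 13.7 against 14.6 to 20.4 and Atf3 at 2.74 to 3.51 against 4.58 to 6.16 were lower in CS too in these cells, while the groups of Fos and Egr1 overlapped, and their part was not tested. In neutrophil granulocytes, where Ptgs2 was highest, the log2 difference was 0.37 (limma adjusted p = 0.7104) and -0.04 without F1.

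Ptges in alveolar fibroblasts had higher values in every CS mouse, at 1.0104, 1.07, 1.24 and 1.45 against 0.79996, 0.839, 0.874 and 0.866. The log2 difference was 0.25 (SE 0.0737) and missed the threshold (limma adjusted p = 0.0953). The share of these cells with a transcript was 46.4% in CS and 34.95% in RA mice, and 14.3% of all genes tested in them had groups without overlap. Alox5ap in ciliated cells, at 0.0668 to 0.0751 in CS and 0.0242 to 0.0556 in RA mice, and Ptgs1 in the same cells, at means of 0.0707 and 0.112, also had groups without overlap at very low levels (limma adjusted p = 0.0662 and 0.0758). Alox5ap met the filter on the share of cells only in CS mice, the group where it was higher. A transcript of it was found in 11.8% of ciliated cells in CS and 6.48% in RA mice. Its difference therefore depends on the filter and is given as a description. After thinning to 2000 UMIs, 1.39% and 0.702% of ciliated cells held Alox5ap. Of all genes tested in ciliated cells, 15.9% had groups without overlap.

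**Figure D5:**
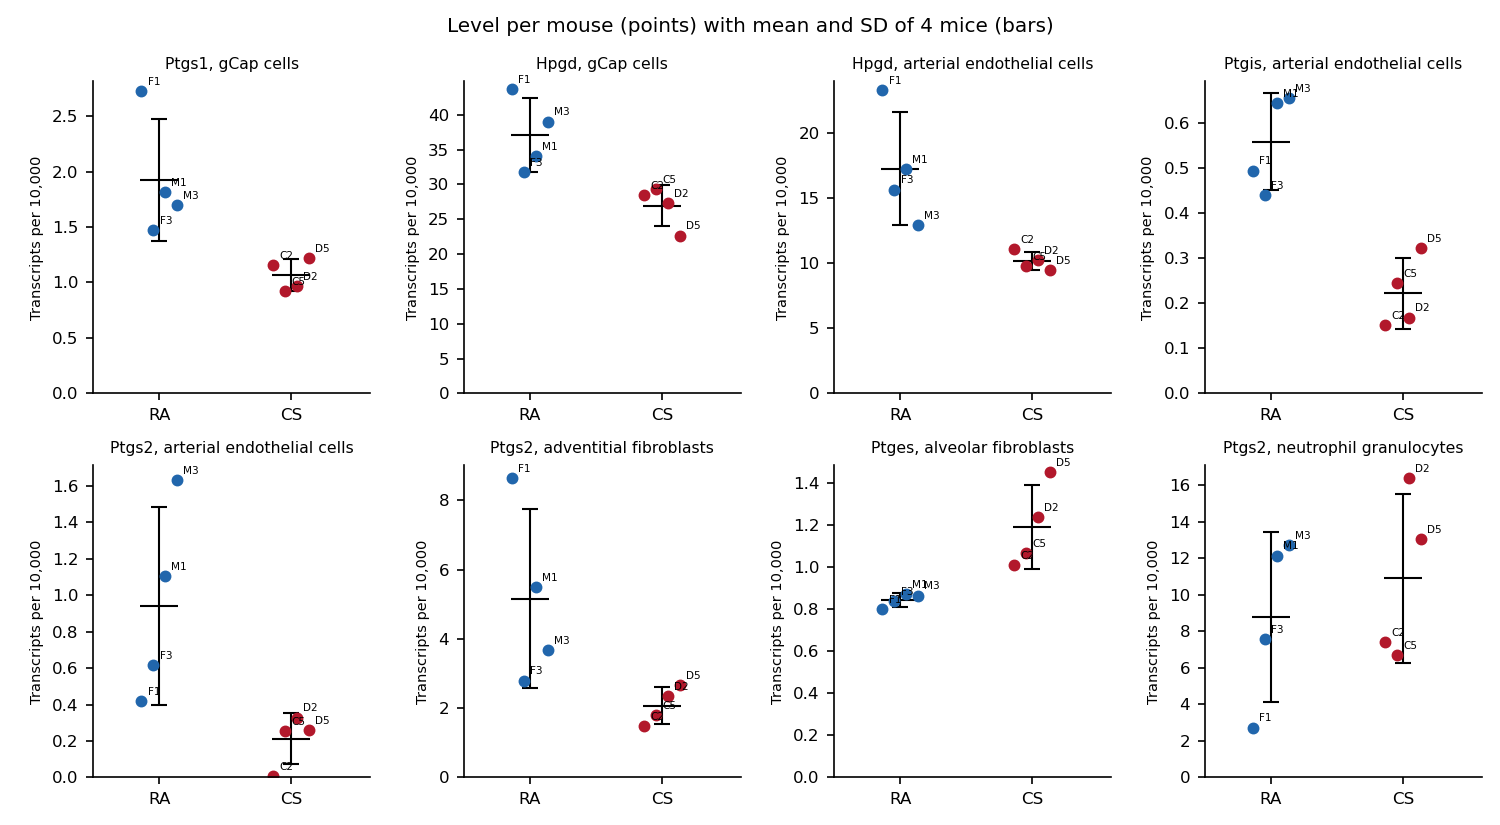
Points give the level of a member in 1 mouse as transcripts per 10,000, RA in blue and CS in red, with the mean and SD of 4 mice. In 7 of the 8 panels no CS value crosses an RA value. The panels were picked from the pairs given in full, some of them for a small p, so this count follows from the choice. Ptgs2 and Ptgis in arterial cells met the filter on the share of cells only in RA mice, where they were higher. Groups without overlap made up 24.5% of all genes tested in gCap, 8.86% in arterial cells, 14.1% in adventitial and 14.3% in alveolar fibroblasts. Ptgs2 in neutrophils, where the groups overlap, is shown for contrast.

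The leukotriene enzymes showed no difference that passed the test in the cells that held them most. Alox5 in cells labelled mast cells was 2.34 ± 0.197 over 4 CS mice against 2.14 ± 0.3104 over 3 RA mice (log2 difference of 0.09, SE 0.112, limma adjusted p = 0.8396). Alox5ap in these cells averaged 18.3 ± 0.701 over 4 CS mice against 19.1 ± 0.531 over 3 RA mice (log2 difference of -0.06, SE 0.108, limma adjusted p = 0.905). Ltc4s in alveolar macrophages, with the values of each mouse given above, differed by 0.13 on the log2 scale (SE 0.152, limma adjusted p = 0.836). For Lta4h in NK and cytotoxic T cells the means were 1.36 ± 0.0724 over 4 CS mice against 0.965 ± 0.3699 over 3 RA mice (log2 difference of 0.28, SE 0.134, limma adjusted p = 0.486).

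In their highest types Ptgs1, Ptgis and Ptgds did not pass the test either. Ptgs1 in mesothelial cells averaged 3.14 ± 0.251 over 3 CS mice against 2.86 ± 0.386 over 4 RA mice (log2 difference of 0.10, SE 0.0989, limma adjusted p = 0.683). The level of Ptgis in alveolar fibroblasts was 7.12 ± 1.18 over 4 CS mice against 8.48 ± 1.24 over 4 RA mice (log2 difference of -0.22, SE 0.138, limma adjusted p = 0.354). Ptgds in mesothelial cells had CS and RA means of 0.0726 and 0.0717 (limma adjusted p = 0.9903).

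A wider list of 78 other genes of eicosanoid metabolism, transport and signalling was described by cell type, of which 71 were in the matrix. Slco2a1, the transporter that takes prostaglandins into cells, stood at 14.6 ± 1.95 in gCap cells and 13.9 in aerocytes, a gap within the spread between mice. Of the arachidonate-releasing enzymes, 5 of 16 reached 1 per 10,000 in some type, led by Mgll in aerocytes (5.32) and with the cytosolic phospholipase Pla2g4a at 1.42 ± 0.145 in ciliated and 1.33 in venous endothelial cells, again within the spread. Cyp4f18, which inactivates leukotriene B4, was highest in cells labelled mast cells (10.8 ± 1.22), as was Alox15 (1.504 ± 0.3496). Thromboxane synthase Tbxas1 was highest in alveolar macrophages (2.003 ± 0.344), and hematopoietic prostaglandin D synthase Hpgds reached no more than 0.101 in the types tested.

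Of 9 prostanoid receptors only Ptger3 reached 1 per 10,000 (1.67 ± 0.286 in cells labelled mast cells, n = 7), while Ptger4 was highest in non-classical monocytes (0.869), Tbxa2r in aerocytes (0.658), Ptgfr in adventitial fibroblasts (0.557), Ptger2 in peribronchial fibroblasts (0.407) and Ptgir in cells labelled mast cells (0.333). For Ptger4, Tbxa2r, Ptgfr, Ptger2 and Ptgir the gap to the second type was within the spread between mice. Ptger1, Ptgdr and Ptgdr2 reached no more than 0.0722. Of the leukotriene receptors, Ltb4r1 and Cysltr1 were highest in classical monocytes (0.919 and 0.285) and Cysltr2 in NK and cytotoxic T cells (0.583), with Ltb4r2 and Oxgr1 at no more than 0.0225. The gaps of Ltb4r1, Cysltr1 and Cysltr2 to their second type were within that spread too. Cmklr1, the chemerin receptor that the list also held, was highest in alveolar fibroblasts (2.09 ± 0.265).

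Of 449 tested pairs of these other genes and a cell type, 10 passed the threshold, 8 higher and 2 lower in CS, against 1.23% of all pairs. The median log2 difference was 0.01, as for all pairs tested. Ephx1, which hydrolyses epoxides including many foreign ones, rose in aerocytes from 0.926 in RA to 1.99 in CS (log2 difference of 0.63, SE 0.0804, limma adjusted p = 0.00673) and in gCap cells from 0.844 to 1.599 (0.49, SE 0.0627, limma adjusted p = 0.0113). Its values did not overlap in either type. In aerocytes 1.96% of all genes passed. Slco2a1 rose in AT1 cells, where the CS mice had 1.501, 1.19, 0.8895 and 1.71 and the RA mice 0.3002, 0.646, 0.473 and 0.2204 (log2 difference of 0.72, SE 0.108, limma adjusted p = 0.00262). In AT1 cells 2.38% of all genes passed.

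In ciliated cells 4 genes rose in CS. They were Abcc4 (0.334 against 0.162, limma adjusted p = 0.00608) and Abcc1 (0.907 against 0.5002, limma adjusted p = 0.0165), exporters of prostanoids and of leukotriene C4, Ggt1 (0.401 against 0.135, limma adjusted p = 0.0128), which trims the glutathione part of leukotriene C4, and Mgst2 (0.692 against 0.457, limma adjusted p = 0.0285), a microsomal glutathione transferase. In these cells 4.63% of 11077 genes passed. The cytosolic prostaglandin E synthase and Hsp90 partner Ptges3 fell in aerocytes (1.14 against 1.69, limma adjusted p = 0.03603), the lipase Pnpla2 fell in AT1 cells (0.617 against 1.07, limma adjusted p = 0.0401), and Cyp4f13 rose in gCap cells (0.399 against 0.281, limma adjusted p = 0.0478). With the lane block, limma gave adjusted p-values of 0.0646 for Ephx1 in gCap cells, 0.05904 for Ptges3, 0.0605 for Pnpla2, 0.0818 for Mgst2 and 0.09704 for Cyp4f13, which ended those 5 calls.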

How the data were processed

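Lung cells of 4 CS and 4 RA mice were profiled with the 10x Genomics 3' version 3 chemistry. The authors aligned reads with STAR 2.7.3a (STARsolo) to GRCm38.p6 with GENCODE M22, removed free RNA with SoupX 1.2.2 and named clusters found in Seurat. The deposited matrix holds estimated counts after that correction (1.28% of the values above 0 were whole within 1e-06), so no count model was used. Their test over single cells was run only as an alternative.

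From these values 1025 multiplets and 7 cell cycle cells were left out. Each cell was scaled to 10,000 transcripts and averaged per mouse and annotated type. Mice with at least 20 cells and types with at least 3 mice per group entered, which left 22 types tested and 10 described by level. Genes in at least 10% of cells of either group were tested with limma 3.58.1 (empirical Bayes with a trend, R 4.3.3) on log2(mean + 1), so low genes show smaller log2 differences. P-values were adjusted over all genes of a type at a threshold of 0.05, and single values were tested with an exact permutation test. Mice are the replicates, and UMI counting leaves counting error at low levels. A share is over cells with a value above 0. Levels were not compared between genes.

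Members, lists and tests were chosen with earlier results of these data known. Full values were given for each member in its highest type, for pairs with adjusted p below 0.05 and for the 6 further pairs with the smallest p. Other pathway genes were named where they passed, up to 10 pairs, and the 3 most alike genes per member were ranked by Pearson r among genes reaching 1 per 10,000. Named beyond this rule, after their values were seen, were Fos, Jun, Egr1, Atf3, the extremes of Hpgd and the types without a test. Same-lane mice did not deviate together in every lane (correlations of deviations in gCap cells from -0.27 to 0.39), but the run names in the labels end in a lane number that 1 CS and 1 RA mouse share, so blocked values stand beside the results they change. Alternatives were other pseudocounts, filters, scalings, covariates, cell minimums, a test over single cells and leaving out each mouse, and a minimum value of 0.5 for a positive cell was added after the data were seen. The sex covariate used the labelled sex, which Xist and Ddx3y went against in the CS libraries.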

Additional observations from a re-analysis of the deposited data

How the results depend on the processing

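The count of member pairs that passed (1 of 94) became 2 with a pseudocount of 0.1, 4 with genes in at least 25% of cells, 4 with summed counts per mouse, 3 with quantile normalization, 3 without a trend and 17 with the Wilcoxon test over single cells, which treats cells of 1 mouse as independent. With no filter on genes limma called 0 of 208 pairs, with 23 at an unadjusted p below 0.05. Leaving out single mice gave 0 to 3 member pairs, with 0 by limma without each CS mouse in turn (15 to 20 at an unadjusted p below 0.05) and 3 without RA mouse F1 or M3. With the lane as replicate block 1 member pair passed, Ptgs2 in arterial endothelial cells in place of Ptgs1 in gCap cells. Ptgs1 in gCap cells passed under 11 of 18 alternatives, with adjusted p from 0.0201 to 0.144 by limma. For 1 of the 11, a minimum of 50 cells, every mouse still entered, so it repeated the main fit. The count for the other pathway genes (10) was 1 with no filter, 6 with the lane as replicate block and 5 to 12 when single mice were left out. Ptgs2 in neutrophils turned to -0.0412 without RA mouse F1 and reached 0.586 without M3. Ptgds in mesothelial cells turned to -0.0155 with the lane as replicate block, -0.00963 with summed counts and -0.00187 with quantile normalization. It ranged from -0.0248 to 0.0217 over the mice left out. The value with the lane block was the same as without F1, whose lane partner C2 was left out of these cells. The cause of the other turns was not tested. Of 10 members, 9 kept their highest type in RA mice only, where Ptgs1 was highest in venous cells, and 9 without CS mouse D2, where Ptgis was highest in mesothelial cells. Levels in the highest types moved by less than 1 SD in all 110 comparisons. Most of these settings reused the same mice and could hardly have moved a level further, so this is a description and no test. For 9 of 9 members the share of positive cells in the highest type stayed above that in the type set as lacking it. This held also after thinning and at a minimum value of 0.5. The highest type was picked by level in these same data, so this order was nearly fixed by the choice and is a description. At these depths the members near 0, Ptgds above all, could be compared in few types.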
